A study of Mus musculus with 19 samples.

Results

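Glycogen in the liver is built and broken down by a small set of enzymes, and the messenger RNAs of 8 genes of that set were followed here. They were the genes whose symbol in the authors' tables was Ugp2, Gys2, Gbe1, Pygl, Phka2, Ppp1r3b, Ppp1r3c or Ppp1r3g, and all 8 of the 8 were found among 14319 genes with counts in every library and passed the filter on low counts, which left 12493 genes. Livers came from 19 adult mice, and every mouse carried 1 copy of a Cre-dependent channelrhodopsin-2 allele (ROSA26 ChR2 fl/wt) and an optic fibre above the arcuate nucleus. Mice called tg had the genotype AgRP-IRES-Cre tg/wt, in which Cre is made by cells that express AgRP, the peptide of hunger-promoting neurons, and mice called wt had the genotype AgRP-IRES-Cre wt/wt. Food was absent while all of them received blue light of 473 nm (20 Hz trains of 10 ms pulses, cycling 3 s on with 1 s off), and livers were taken at zeitgeber time 7.5 h. Light began at 5.5 h for the groups wt 2 h (n = 5) and tg 2 h (n = 4, replicates 1, 2, 3 and 5) and at 3.5 h for the groups wt 4 h (n = 5) and tg 4 h (n = 5). The diet label of every mouse reads Random Fed. No tg mice without light were analysed, so excitation of the neurons cannot be told apart from carriage of the Cre driver. Expression of AgRP was not analysed here, and the genotypes are those of the labels.

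Glycogen synthase adds glucose from UDP-glucose to a growing chain, the branching enzyme makes the branch points, and glycogen phosphorylase releases glucose 1-phosphate from the chain ends. Phosphorylation switches the synthase off and the phosphorylase on. Protein phosphatase 1 removes these phosphates, and its glycogen-targeting subunits, the PPP1R3 proteins, carry the phosphatase to the glycogen particle. The comparison of tg with wt mice asked whether the messenger RNAs of the enzymes, of a subunit of their kinase or of these targeting subunits differed in liver after 2 h or 4 h of light.

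Total counts per library ran from 21474255 to 32721605. Values are given as CPM, the count of a gene scaled to the size of its library, with sizes adjusted by the trimmed mean of M-values (TMM), and a gene is said to have risen or fallen where its adjusted p was under 0.05 over all 12493 genes. Of these genes 2.16% passed that test in either direction at 2 h and 11.4% at 4 h. Mitochondrial genes took 7.75% of counts in tg 2 h replicate 1 and 7.83% in wt 4 h replicate 1, against 10.0% to 12.9% in the other libraries. These libraries and tg 4 h replicate 3 had stood apart in earlier results of these data, and values without the 3 of them are given below where they differ. All 7 hepatocyte markers were present, with summed levels of 71440 to 113638 CPM over the 19 libraries. At 2 h the sums ran from 78585 to 97296 CPM in wt and from 71440 to 105588 CPM in tg. At 4 h they ran from 76238 to 99474 CPM in wt and from 93652 to 113638 CPM in tg. Of the 7 markers, 1 passed the test of tg against wt at each duration.

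The mRNAs of Ppp1r3b and Ppp1r3c rose in tg mice at 4 h, by 4.52-fold and 4.86-fold, and those of all 3 targeting subunits rose when the genotype effect was averaged over both durations. None of the 4 enzymes, nor the kinase subunit Phka2, passed the test in any of the 6 contrasts fitted, and 0 of these 5 had an unadjusted p under 0.05 in any of them. These compared tg with wt at 2 h, at 4 h and averaged, then the 4 h effect minus the 2 h effect, and 4 h against 2 h within tg and within wt. Of the 8 genes, 2 rose and 0 fell at 4 h, where 5.75% of all genes rose and 5.64% fell. On average 3 rose and 0 fell, where 6.98% of all genes rose and 7.22% fell. At 2 h 0 of the 8 passed the test of edgeR with Benjamini-Hochberg adjustment, where 1.14% of all genes rose and 1.02% fell, and the changes of the 3 subunits were positive but short of the threshold, with an unadjusted p under 0.05 in 3 of 3.

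**Figure D1:**
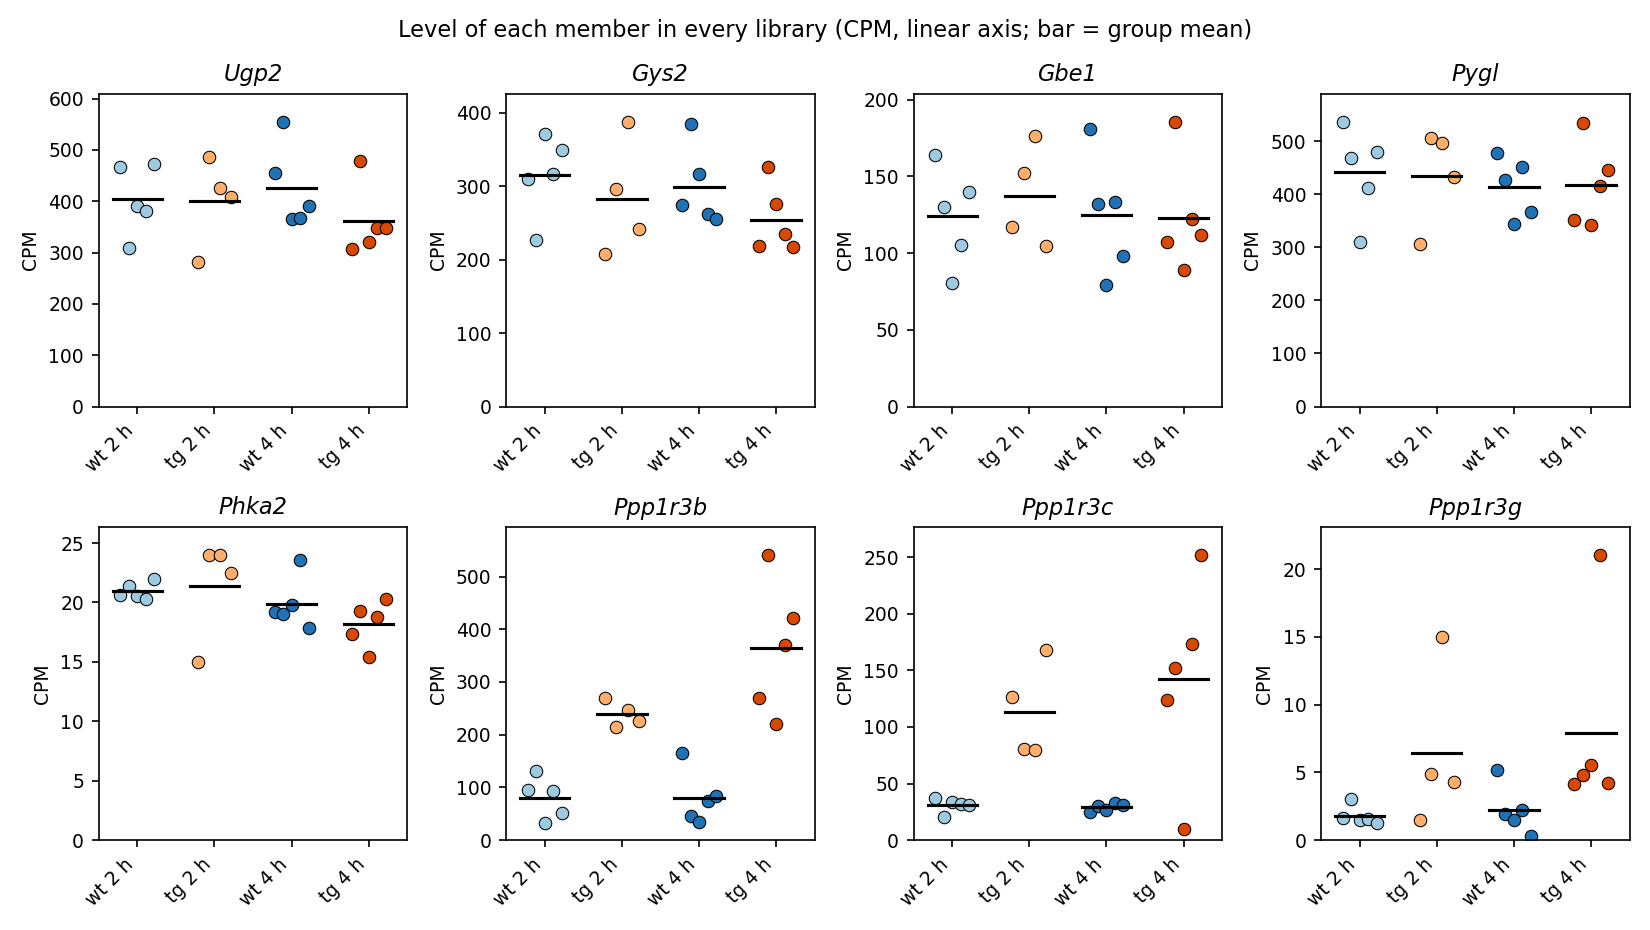
CPM (TMM-scaled counts, linear axes from 0) of each of the 8 genes in each of the 19 libraries, by group, with a point per library and a line at the group mean. Every tg library of Ppp1r3b lies above every wt library of its duration, Ppp1r3c does so except for tg 4 h replicate 3, and the groups overlap in Ppp1r3g, the 4 enzymes and Phka2. Of all genes, 2.91% at 2 h and 4.27% at 4 h have every tg library above every wt library.

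Ppp1r3b encodes the targeting subunit also called GL, the main one of liver, which binds glycogen and, in its phosphatase complex, is inhibited by active phosphorylase. The gene (ENSMUSG00000046794) lies on the forward strand at chr8:35375739-35388139 of build GRCm38. At 2 h the wt libraries 1 to 5 had 94.1, 130.4, 31.7, 93.8 and 52.2 CPM of Ppp1r3b. The tg libraries 1, 2, 3 and 5 had 269.9, 215, 247 and 226 CPM. The lowest tg library therefore lay above the highest wt library, and wt mice differed more among themselves than tg mice did. Group levels were 80.4 ± 38.8 CPM (SD, n = 5) in wt and 239.6 ± 24.2 CPM (SD, n = 4) in tg. The log2 change of Ppp1r3b at 2 h was 1.58 ± 0.425 (SE), with a 95% interval of 0.68 to 2.47 and an adjusted p of 0.0691 (edgeR quasi-likelihood, Benjamini-Hochberg). It therefore did not pass in spite of the absence of overlap, a pattern that 2.91% of all genes shared in that direction.

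At 4 h the wt libraries 1 to 5 had 165, 45.3, 33.9, 74.6 and 84.3 CPM of Ppp1r3b, and the tg libraries had 269.6, 540.2, 221, 371 and 422 CPM. Again every tg library was above every wt library, and wt 4 h replicate 1 was the wt mouse nearest to the tg range. Ppp1r3b rose from 80.7 ± 51.6 CPM (SD, n = 5) to 365 ± 126 CPM (SD, n = 5), a log2 change of 2.17 ± 0.416 (SE) with a 95% interval of 1.3 to 3.05. The adjusted p was 0.00306 (edgeR quasi-likelihood, Benjamini-Hochberg), and tg lay wholly above wt in 4.27% of all genes at this duration. The rise was 2.61 without wt 4 h replicate 1 and 2.77 without the 3 libraries that stood apart. These 3 include the highest wt and the lowest tg library of Ppp1r3b at 4 h, so leaving them out widens the difference. The rise was 1.98 at its lowest, without wt 4 h replicate 3, and the call held in all 10 fits that left out 1 library. In bulk liver RNA, a change in the number of cells of a type cannot be told apart from a change in RNA per cell.

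Averaged over both durations the log2 change of Ppp1r3b was 1.88 ± 0.297 (SE), with an adjusted p of 0.000444 in edgeR with Benjamini-Hochberg adjustment. It was above all wt libraries of its duration in 9 of 9 tg mice. Of all genes, 2.91% at 2 h and 4.27% at 4 h had every tg library above every wt library. The effect at 4 h minus that at 2 h was 0.60 ± 0.583 (SE) on the log2 scale, with a 95% interval of -0.63 to 1.83. A larger rise at 4 h was thus not detected, and the interval allows a change of either sign. The wt groups of the 2 durations had nearly the same mean level, with a log2 difference of 0.01 ± 0.400 (SE), 4 h minus 2 h.

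Ppp1r3c encodes the targeting subunit called PTG, protein targeting to glycogen, which is made in several tissues and binds both the synthase and the phosphorylase. The gene (ENSMUSG00000067279) lies on the reverse strand at chr19:36731731-36736653 of build GRCm38 and has 1 annotated transcript with 2 exons. The wt libraries 1 to 5 had 37.4, 20.8, 33.2, 31.9 and 30.8 CPM of Ppp1r3c at 2 h, and the tg libraries 1, 2, 3 and 5 had 126, 80.5, 79.8 and 168 CPM. All tg libraries were above all wt libraries, as in 2.91% of all genes at 2 h, and the wt levels were close together. Levels were 30.8 ± 6.14 CPM (SD, n = 5) in wt and 114 ± 42.2 CPM (SD, n = 4) in tg. The log2 change was 1.88 ± 0.511 (SE), with a 95% interval of 0.80 to 2.96, and the adjusted p was 0.0726 (edgeR quasi-likelihood, Benjamini-Hochberg).

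At 4 h the wt libraries 1 to 5 had 24.9, 29.98, 26.9, 33.2 and 31.4 CPM of Ppp1r3c, and the tg libraries had 124, 152, 10.2, 173 and 252 CPM. Here 4 of 5 tg mice lay far above the wt range, while tg 4 h replicate 3, with 269 counts, was the lowest of all 19 libraries. Ppp1r3c rose from 29.3 ± 3.34 CPM (SD, n = 5) to 142 ± 87.8 CPM (SD, n = 5), a log2 change of 2.28 ± 0.499 (SE) with a 95% interval of 1.23 to 3.34 and an adjusted p of 0.00712 (edgeR quasi-likelihood, Benjamini-Hochberg). Without tg 4 h replicate 3 it was 2.58, and the call held in all 10 fits that left out 1 library. With limma-voom the change was 1.74 and the call was lost, with a Benjamini-Hochberg adjusted p of 0.0790. That tg mouse was also the lowest of tg 4 h in Ppp1r3b, but at 221 CPM it lay above every wt library of 4 h. The 2 subunits thus parted in it in degree.

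Averaged over durations Ppp1r3c rose by 2.08 ± 0.357 (SE) on the log2 scale, with an adjusted p of 0.000859 in edgeR with Benjamini-Hochberg adjustment, and 8 of 9 tg mice lay above all wt mice of their duration. The effect at 4 h minus that at 2 h was 0.40 ± 0.698 (SE), with a 95% interval of -1.08 to 1.87. No difference between durations was detected, and the interval is wide.

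**Figure D2:**
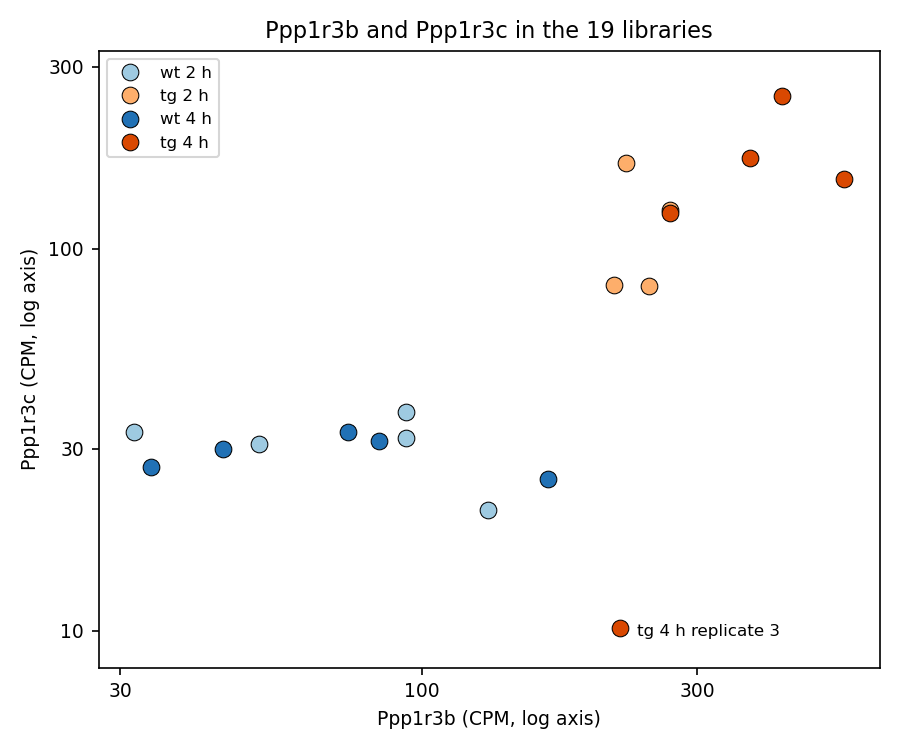
Ppp1r3c against Ppp1r3b in the 19 libraries, both in CPM on log axes, with a point per library coloured by group. The wt libraries spread along the Ppp1r3b axis, from 31.7 to 165 CPM, at a Ppp1r3c level of 20.8 to 37.4 CPM, and 8 of 9 tg libraries lie above and to the right of them, while tg 4 h replicate 3 has 221 CPM of Ppp1r3b and 10.2 CPM of Ppp1r3c.

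The plot of Ppp1r3c against Ppp1r3b shows that the wt mice varied more in Ppp1r3b than in Ppp1r3c. The coefficient of variation of Ppp1r3b among wt mice was 48.3% at 2 h and 64.0% at 4 h, against 19.9% and 11.4% for Ppp1r3c. Among tg mice the order was the other way, with 10.1% and 34.6% for Ppp1r3b and 37.1% and 61.7% for Ppp1r3c. These shares come from 4 or 5 mice a group and describe them.

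Ppp1r3g encodes another glycogen-targeting subunit, reported from mouse liver, and was by far the least abundant of the 3. The gene (ENSMUSG00000050423) lies on the forward strand at chr13:35958839-35970388 of build GRCm38, and its counts ran from 10 to 478 per library. At 2 h the wt libraries 1 to 5 had 1.60, 3.01, 1.47, 1.55 and 1.24 CPM of Ppp1r3g, and the tg libraries 1, 2, 3 and 5 had 1.48, 4.84, 15 and 4.29 CPM. At 4 h the wt libraries had 5.15, 1.94, 1.51, 2.21 and 0.328 CPM, and the tg libraries had 4.12, 4.82, 5.56, 21.0 and 4.18 CPM. The groups overlapped at both durations, since tg 2 h replicate 1 was as low as the wt mice and wt 4 h replicate 1 was as high as most tg mice. The upper end of each tg group was a single mouse, tg 2 h replicate 3 and tg 4 h replicate 4.

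The log2 change of Ppp1r3g was 1.85 ± 0.699 (SE) at 2 h and 1.82 ± 0.657 (SE) at 4 h, with adjusted p of 0.260 and 0.0860 (edgeR quasi-likelihood, Benjamini-Hochberg). On average it rose by 1.84 ± 0.479 (SE), with a 95% interval of 0.82 to 2.85 and an adjusted p of 0.0155 (edgeR quasi-likelihood, Benjamini-Hochberg). Single mice decided much of these values. Without tg 2 h replicate 3 the change at 2 h was 0.99 and the average change was 1.41, with an adjusted p of 0.0509 (edgeR, Benjamini-Hochberg), so the call on average was lost. Without tg 4 h replicate 4 the change at 4 h was 1.06. Without wt 4 h replicate 1 the change at 4 h was 2.43 and passed, with an adjusted p of 0.0285 (edgeR, Benjamini-Hochberg). Without the 3 libraries that stood apart it was 2.55 and passed with an adjusted p of 0.0190 (edgeR, Benjamini-Hochberg), and in DESeq2 the change of 1.84 at 4 h passed with a Benjamini-Hochberg adjusted p of 0.0418.

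The calls of Ppp1r3b and Ppp1r3c at 2 h moved with the test and with the libraries included. A fit to the 5 wt and 4 tg mice of 2 h alone gave edgeR Benjamini-Hochberg adjusted p of 0.0336 for Ppp1r3b and 0.00186 for Ppp1r3c, with log2 changes of 1.58 and 1.88. DESeq2 on all 19 libraries gave 0.0142 and 0.0121 with Benjamini-Hochberg adjustment, and limma-voom gave 0.0526 and 0.213 with Benjamini-Hochberg adjustment. Ppp1r3b also passed in edgeR without wt 2 h replicate 2, the wt mouse with the highest level at 2 h, at a log2 change of 1.82 and a Benjamini-Hochberg adjusted p of 0.0470. Ppp1r3c passed at 2 h without the 3 libraries that stood apart, at a log2 change of 1.83 and an adjusted p of 0.000865 (edgeR, Benjamini-Hochberg). In the authors' deposited table for 2 h the log2 fold changes were 1.58 for Ppp1r3b and 1.88 for Ppp1r3c, with adjusted p-values of 2.60e-05 and 9.996e-13, and 3.98% of the genes with an adjusted p-value in that table passed 0.05. In the authors' deposited table for 4 h both genes passed as well, with log2 fold changes of 2.18 and 2.29, adjusted p-values of 0.000130 and 0.00350, and a background of 12.2%. Ppp1r3g and the 5 other genes passed in neither of the authors' deposited tables.

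**Figure D3:**
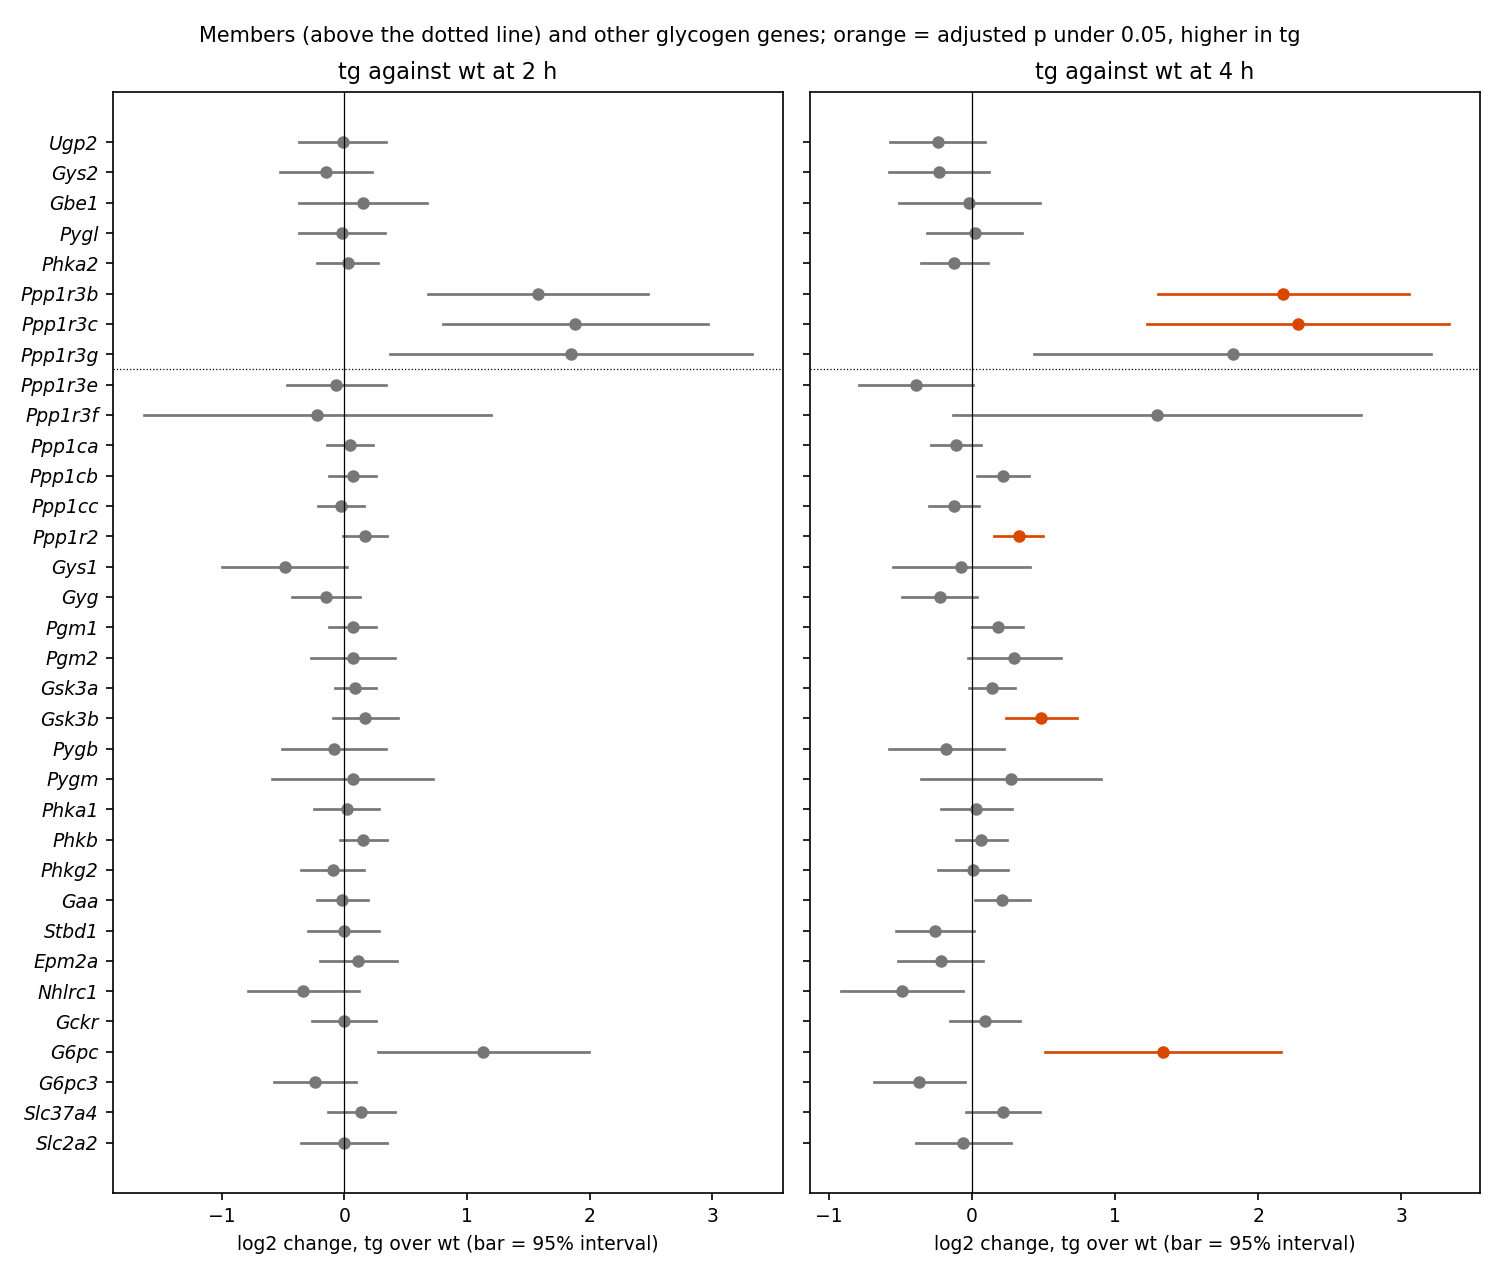
Log2 change, tg against wt, of the 8 genes (above the dotted line) and of 26 other glycogen genes at 2 h and at 4 h from the edgeR fit to 19 libraries, with points at the estimate, bars for the 95% interval, a line at 0, and orange for a Benjamini-Hochberg adjusted p under 0.05. The intervals of the 3 targeting subunits lie above 0 before adjustment over all genes, and those of the 4 enzymes and of Phka2 cover 0 at both durations.

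**Figure D4:**
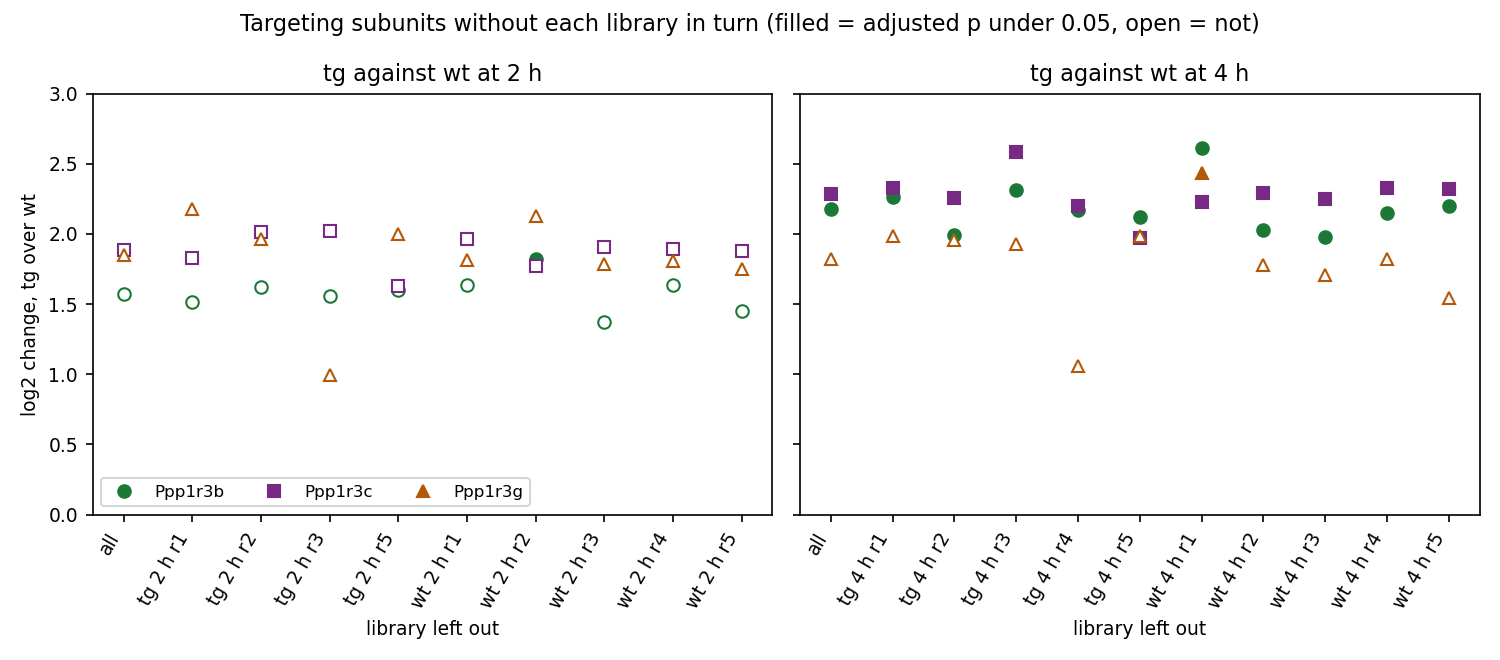
Log2 change, tg against wt, of the 3 targeting subunits at 2 h and at 4 h in the fit to all libraries and in fits that leave out 1 library each. Ppp1r3b runs from 1.37 to 1.82 at 2 h and from 1.98 to 2.61 at 4 h, Ppp1r3c from 1.63 to 2.02 and from 1.97 to 2.58, and Ppp1r3g from 0.99 to 2.18 and from 1.06 to 2.43.

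The regions just before the transcription start were read for letters that known regulators bind. RefSeq's table of promoters for GRCm38.p6 held 6 of the 8 genes, Ppp1r3b and Gys2 being the others. The 250 bases before each start were searched on both strands for TGACGTCA and its core TGACG (cAMP response), AGAACA (part of the glucocorticoid element), CACGTG (the E-box of clock factors), TTATGTAA (D-box) and GTAAACA (forkhead). TGACGTCA contains TGACG, so a match of the first is also a match of the second. Ppp1r3c held CACGTG, starting 104 bases before its RefSeq start, and 6.02% of 32851 promoters hold these letters in the same window. Ppp1r3g held TGACG at 40 bases, as 17.8% of all promoters do, within the first exon of 1 of its 3 transcripts in GENCODE. Among the genes that did not pass the test, Pygl held TGACG on the reverse strand at 44 bases, and Phka2 held AGAACA on the reverse strand at 153 bases, which 16.1% of promoters do. TGACGTCA, TTATGTAA and GTAAACA had no match in these windows, and 1.55%, 0.819% and 3.17% of promoters hold them. A match of letters is a description of the sequence and does not show that a factor binds there. Stretches of the 2 subunit genes are shown because these genes rose on average. That of Ppp1r3c ends where its transcript in GENCODE begins, and that of Ppp1r3g ends at an inner start, since another of its transcripts begins farther upstream. They are from RefSeq's GRCm38.p6, 5′ to 3′ on the gene's own strand, with the E-box in capitals, at chr19:36736654-36736854 (reverse strand) for Ppp1r3c and chr13:35967656-35967852 (forward strand) for Ppp1r3g.
Ppp1r3c: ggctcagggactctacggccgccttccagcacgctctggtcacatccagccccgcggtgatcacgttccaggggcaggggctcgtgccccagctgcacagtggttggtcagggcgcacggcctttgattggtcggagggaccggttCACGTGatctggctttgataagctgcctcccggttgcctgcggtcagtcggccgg
Ppp1r3g: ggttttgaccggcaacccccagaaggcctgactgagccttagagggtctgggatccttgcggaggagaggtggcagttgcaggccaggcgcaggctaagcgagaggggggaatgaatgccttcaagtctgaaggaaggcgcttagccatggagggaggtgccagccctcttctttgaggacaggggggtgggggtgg

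The share of G and C was 66.2% in the Ppp1r3c stretch and 61.9% in the Ppp1r3g stretch. In their 250-base windows it was 64.4% and 63.2%, against a median of 52.4% over the 250-base windows of all promoters. A high share was not particular to these subunits, with 69.2% for Pygl, 62.8% for Phka2 and 64.0% and 73.6% for the windows of Ugp2. Gbe1 had 48.8%.

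Ugp2 encodes UDP-glucose pyrophosphorylase, which makes the UDP-glucose that the synthase uses. It was the most abundant of the 8 per kilobase of exon and ran from 281 to 554 CPM over all libraries. The log2 change of Ugp2 was -0.01 ± 0.169 (SE) at 2 h and -0.24 ± 0.160 (SE) at 4 h, and the 95% interval at 4 h ran from -32.9% to 6.49%. Its tg 4 h replicate 2, at 478 CPM, lay apart from the other mice of the group, which had 308 to 349 CPM.

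Gys2 encodes the liver form of glycogen synthase, the enzyme that phosphatase 1 activates. The wt libraries 1 to 5 had 309, 227, 371, 317 and 349 CPM at 2 h, and the tg libraries 1, 2, 3 and 5 had 207, 296, 388 and 242 CPM. At 4 h the wt libraries had 275, 385, 317, 263 and 256 CPM, and the tg libraries had 219, 327, 276, 235 and 217 CPM. The groups overlapped at both durations, with the highest and the lowest library of 2 h both in tg. The log2 change of Gys2 was -0.15 ± 0.179 (SE) at 2 h and -0.23 ± 0.169 (SE) at 4 h, with adjusted p of 0.871 and 0.424 (edgeR quasi-likelihood, Benjamini-Hochberg). The 95% interval at 4 h ran from -33.3% to 8.62%, so a change of the size seen in Ppp1r3b or Ppp1r3c lay outside it.

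Gbe1 encodes the branching enzyme. Its levels were 124 ± 32.3 CPM (SD, n = 5) and 138 ± 32.6 CPM (SD, n = 4) in wt and tg at 2 h, and 125 ± 39.0 and 123 ± 36.8 CPM (SD, n = 5 each) at 4 h. The log2 change of Gbe1 was 0.15 ± 0.249 (SE) at 2 h and -0.02 ± 0.235 (SE) at 4 h. Its mice varied most among the enzymes, and the 95% interval at 2 h ran from -22.7% to 59.5%.

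Pygl encodes the liver form of glycogen phosphorylase, and Phka2 the regulatory alpha subunit of liver phosphorylase kinase, the enzyme that switches phosphorylase on. The wt libraries 1 to 5 had 536, 469, 311, 411 and 479 CPM of Pygl at 2 h, and the tg libraries 1, 2, 3 and 5 had 306, 506, 497 and 432 CPM. At 4 h the wt libraries had 478, 426, 344, 452 and 367 CPM of Pygl, and the tg libraries had 352, 534, 343, 415 and 447 CPM. Within each duration both groups covered about the same range. The log2 change of Pygl was -0.02 ± 0.169 (SE) at 2 h and 0.02 ± 0.160 (SE) at 4 h, and the 95% interval at 4 h ran from -19.7% to 27.4%.

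Phka2 had 21.0 ± 0.708 CPM (SD, n = 5) in wt and 21.4 ± 4.29 CPM (SD, n = 4) in tg at 2 h, where tg replicate 1 had 15 CPM and the other 3 tg mice had 22.5 to 24.0 CPM. At 4 h Phka2 had 19.9 ± 2.16 CPM in wt and 18.2 ± 1.90 CPM in tg (SD, n = 5 each), and its log2 change was 0.03 ± 0.118 (SE) at 2 h and -0.13 ± 0.112 (SE) at 4 h. Exons of Ugp2 and Phka2 share 78 and 115 bases with antisense genes that were not analysed here, and use of strand in the counting was not stated by the labels.

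Over the 4 enzymes and Phka2 together, 0 of 5 rose and 0 of 5 fell at either duration by edgeR with Benjamini-Hochberg adjustment, and the median log2 change was -0.01 at 2 h and -0.13 at 4 h. The median over all fitted genes was 0.01 and -0.01. Over the 3 targeting subunits the median log2 change was 1.85 at 2 h and 2.17 at 4 h. The enzymes were read from the same libraries, so their values in a mouse share its scaling. In tg 2 h replicate 1, a library with a low mitochondrial share, 4 of 5 of these genes were at the lowest level of their group. The other library with a low share, wt 4 h replicate 1, was lowest in 0 and highest in 2 of 5, and tg 4 h replicate 2 was highest in 4 of 5. Both wt 4 h replicate 3 and tg 4 h replicate 3 were lowest in 3 of 5. Of the 3 targeting subunits, tg 4 h replicate 3 was lowest of its group in 2.

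Pooled over the groups, the subunits varied more between mice than the enzymes did, though not in each group. The biological coefficient of variation, edgeR's estimate of spread within groups beyond counting error, was 0.431 for Ppp1r3b, 0.511 for Ppp1r3c and 0.685 for Ppp1r3g, and 3.96%, 2.08% and 0.816% of all fitted genes had a higher one. It was 0.261 for Gbe1, 0.194 for Gys2, 0.186 for Ugp2 and Pygl and 0.128 for Phka2, against a median of 0.150 over all genes. The standard errors of the subunits' changes were larger than those of the enzymes. Within single groups the order could turn, as for Ppp1r3b in tg 2 h, with a coefficient of variation of 10.1% against 20.1% or more for the 4 enzymes and Phka2, and for Ppp1r3c in wt 4 h, with 11.4% against 13.7% or more for the 4 enzymes.

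Levels were compared between genes as CPM per kilobase of annotated exon, with all exons of a gene merged. In wt 2 h the order was Ugp2 (132 ± 22.1, SD, n = 5), Gys2 (118 ± 20.7), Pygl (64.0 ± 12.4), Gbe1 (23.1 ± 6.03), Ppp1r3b (12.9 ± 6.25), Ppp1r3c (11.3 ± 2.25), Phka2 (3.45 ± 0.117) and Ppp1r3g (0.659 ± 0.262), all in CPM per kilobase. The neighbours Ugp2 and Gys2, Gbe1 and Ppp1r3b, and Ppp1r3b and Ppp1r3c differed by less than their spread, and wt 4 h had the same order. In tg mice both subunits stood above Gbe1. In tg 4 h Ppp1r3b had 58.7 ± 20.3 and Ppp1r3c 52.2 ± 32.2 CPM per kilobase (SD, n = 5), next to Pygl with 60.6 ± 11.3, from which neither differed beyond the spread, and Gbe1 had 23.0 ± 6.88. In tg 2 h Ppp1r3c had 41.7 ± 15.5 and Ppp1r3b 38.5 ± 3.90 CPM per kilobase (SD, n = 4), against 25.7 ± 6.10 for Gbe1. On this scale of merged exons the gap between Ppp1r3b and Gbe1 in tg mice was larger than the sum of their SDs at both durations, and the gap between Ppp1r3c and Gbe1 was smaller than that sum at both. The place of Pygl depends on the length used, since its merged exons come to 6895 bases and its longest protein-coding transcript to 2992 bases. With the latter length, chosen after seeing the data, Pygl stood at rank 2 over all libraries and Gys2 at rank 3, and Gbe1 stood at rank 5, above Ppp1r3c. In tg 4 h Pygl then had 139.8 ± 26.1, Ppp1r3b 83.1 ± 28.8 and Ppp1r3c 52.2 ± 32.2 CPM per kilobase (SD, n = 5), so that both subunits lay below Pygl by more than the summed SDs. The gap between Ppp1r3b and Gbe1 in tg 2 h was then smaller than the sum of their SDs.

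Per kilobase, Ppp1r3b stood at 0.120 ± 0.0805 of the level of Gys2 in wt 2 h and at 0.385 ± 0.126 in tg 2 h (SD, n = 5 and 4). At 4 h this ratio was 0.123 ± 0.0861 in wt and 0.616 ± 0.188 in tg (SD, n = 5 each), and at each duration the lowest tg mouse, with 0.273 and 0.342, was above the highest wt mouse, with 0.245 and 0.257. The ratio of Gys2 to Pygl overlapped between the groups, at 1.95 ± 0.709 and 1.69 ± 0.260 in wt and tg at 2 h and 1.91 ± 0.440 and 1.60 ± 0.305 at 4 h. With the length of the longest coding transcript it fell below 1 on average, at 0.846 ± 0.308 and 0.733 ± 0.113 in wt and tg at 2 h and 0.8288 ± 0.191 and 0.696 ± 0.132 at 4 h, so which of the pair is higher depends on the length used. With merged exons Ppp1r3b made up 49.5% ± 15.6 and 49.0% ± 14.3 of the summed level of the 3 subunits in wt 2 h and wt 4 h, and 47.6% ± 7.73 and 56.3% ± 17.9 in tg 2 h and tg 4 h. These shares overlapped between all groups, and in tg 4 h replicate 3 alone Ppp1r3b made up 86.0% of it.

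Within a genotype, time under light made no detected difference to any of the 8 genes. Between 4 h and 2 h in tg mice 0 of 8 passed in edgeR, where 0.913% of all genes did. Of the 8, 0 had an unadjusted p under 0.05, against 1513 of all genes. The log2 difference of Ppp1r3b in tg mice was 0.61 ± 0.427 (SE), 4 h minus 2 h. In wt mice 0 of 8 passed in edgeR and 0% of all genes did, with 1 gene passing in DESeq2, while 0 of 8 and 747 of all genes had an unadjusted p under 0.05. Ppp1r3g had the largest difference among the wt mice, at 0.34 ± 0.691 (SE) on the log2 scale. For the difference of the genotype effects 0 of 8 passed in edgeR, again with 0% of all genes, or 6 genes in DESeq2, and 0 of 8 and 723 of all genes had an unadjusted p under 0.05.

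The pathway around the 8 genes was read from a list of 30 others, of which 29 were in the count table and 26 were fitted. At 2 h 0 of the 26 passed the test of edgeR with Benjamini-Hochberg adjustment, where 2.16% of all genes did. At 4 h 3 of the 26 rose and 0 fell, where 5.75% of all genes rose and 5.64% fell. An unadjusted p under 0.05 was found for 1 of the 26 at 2 h and 7 of the 26 at 4 h. Of all 12493 fitted genes, 1460 at 2 h and 3182 at 4 h had one, so 7 of 26 was close to the share of all genes. The median log2 change of the 26 was 0.0058 at 2 h and 0.05 at 4 h. G6pc, the catalytic subunit of glucose-6-phosphatase, which frees glucose from glucose 6-phosphate, rose at 4 h from 258 ± 68.7 to 651 ± 237 CPM (SD, n = 5 each), a log2 change of 1.33 ± 0.390 (SE). It lay above all wt mice in 5 of 5 tg mice at 4 h, a pattern that 4.27% of all genes shared. The adjusted p was 0.0348 (edgeR quasi-likelihood, Benjamini-Hochberg). At 2 h G6pc had 296 ± 178 CPM in wt (SD, n = 5) and 649 ± 123 CPM in tg (SD, n = 4). Its log2 change at 2 h was 1.13 ± 0.406 (SE), with an adjusted p of 0.216 (edgeR quasi-likelihood, Benjamini-Hochberg). The effect at 4 h minus that at 2 h was 0.20 ± 0.560 (SE), so no difference between durations was detected.

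The other 2 genes that rose at 4 h act on the phosphorylation of the synthase. Gsk3b, glycogen synthase kinase 3 beta, which phosphorylates and inhibits the synthase, rose from 34.3 ± 7.86 to 47.9 ± 3.05 CPM (SD, n = 5 each), a log2 change of 0.48 ± 0.120 (SE). Ppp1r2, phosphatase inhibitor 2, rose from 34.8 ± 4.28 to 43.7 ± 2.96 CPM (SD, n = 5 each), a log2 change of 0.33 ± 0.0815 (SE). The adjusted p were 0.0123 and 0.0128 (edgeR quasi-likelihood, Benjamini-Hochberg). For Ppp1r2 the lowest tg library, at 40.2 CPM, was barely above the highest wt library, at 40.0 CPM, and 4.27% of all genes lacked overlap in that direction at 4 h.

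Of the other targeting subunits, Ppp1r3a and Ppp1r3d did not pass the filter on low counts, and Ppp1r3e (log2 change -0.39 at 4 h) and Ppp1r3f (1.29 at 4 h, at 0 to 12 counts in the libraries of that duration) were fitted and did not pass the test. The catalytic subunits Ppp1ca, Ppp1cb and Ppp1cc had log2 changes of -0.11, 0.22 and -0.13 at 4 h and did not pass either. Gys1, the synthase of muscle and most other tissues, had 1.83 ± 0.375 CPM in wt and 1.74 ± 0.623 CPM in tg at 4 h (SD, n = 5 each). Pygb, the brain form of phosphorylase, had 2.84 ± 0.670 and 2.51 ± 0.278 CPM, and Gyg, the primer protein glycogenin, had 6.37 ± 0.325 and 5.44 ± 1.09 CPM in wt and tg at 4 h. None of these 3 passed the test at either duration.

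Markers of other cells were read beside the subunits, since Ppp1r3c is also made in muscle and fat. Of 5 skeletal muscle markers (Ckm, Acta1, Myh4, Myl1 and Tnnt3) 0 were among the genes with counts analysed. Of 5 adipocyte markers 2 were, and their summed level at 2 h ran from 5.62 to 12.0 CPM in wt mice and from 4.76 to 11.7 CPM in tg mice. At 4 h it ran from 5.45 to 11.2 CPM in wt mice and from 11 to 24.6 CPM in tg mice. Adiponectin (Adipoq), perilipin 1 (Plin1) and leptin (Lep) were not among them, and 0 of the 2 passed the test at either duration. The summed level overlapped between tg and wt at 2 h and barely at 4 h, where tg 4 h replicate 3 was the lowest tg library. The part of this level in the rise of Ppp1r3b and Ppp1r3c was not tested. Markers of Kupffer cells, sinusoidal endothelium and stellate cells (5 of 5 present each) had 0 calls at either duration, cholangiocyte markers (5 of 5 present, Krt19 and Krt7 under 1 CPM) had 1 call at 2 h and 0 at 4 h, and neutrophil markers (4 of 5 present, 3 of them under 1 CPM) had 0.

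Some genes followed the subunits closely over the 19 libraries. Likeness was measured as the root mean square difference between mean-centred log2 CPM profiles over the 19 libraries, among 11141 genes that averaged 1 CPM or more. The genes most like Ppp1r3b were Mfsd2a (0.421), Shld2 (0.461) and Tmc7 (0.461), where the median gene was at 1.23 and Ppp1r3b deviated from its own mean by 1.20. Mfsd2a, a transporter of lysophosphatidylcholine, went from 71.2 to 263 CPM between the means of wt 2 h and tg 2 h, and from 67.5 to 244 CPM at 4 h. The genes most like Ppp1r3c were Arrdc2 (0.511), Il1r1 (0.604) and Slc38a2 (0.651), with a median gene at 1.27 and an own deviation of 1.26. In tg 4 h replicate 3, where Ppp1r3c was lowest, these 3 genes had 6.73, 21.4 and 130.4 CPM. Their means over the tg 4 h group, that library included, were 42.8, 105 and 350.3 CPM. The like genes were picked over all 19 libraries. Their levels in tg 4 h replicate 3, and their differences between tg and wt, therefore follow in part from that choice. The list of like genes describes these libraries and was not tested.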

How the data were processed

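Liver RNA of 19 mice was read in poly-A selected, stranded libraries made from 1 µg of RNA with integrity numbers above 8 (labels' protocols). Tools named in the submitters' processing notes, with no role, are Salmon 1.4.0, STAR and DESeq2 1.30.0, and the build is GRCm38.p6. The authors deposited a table of whole counts for 14576 genes, of which 257 had no 4 h value and were left out. Their tables of each duration give log2 fold changes, a baseMean of normalised signal, a test score, p-values and adjusted p-values, as deposited, and the 4 h table lists 206 genes without counts. Gene symbols are those of the authors, and positions are from GENCODE M21.

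Counts were fitted in R 4.3.3 with edgeR 4.0.16 (minimum count 10, minimum total 15, TMM scaling, 1 mean per group, robust quasi-likelihood, 15 residual degrees of freedom), and Benjamini-Hochberg adjustment at 0.05 ran over all 12493 genes. The common biological coefficient of variation was 0.183. The fitting steps were tested on simulated data. P-values set each difference against the spread between these mice. All 36 pairs of libraries within groups differed beyond sampling noise (chi-square over its degrees of freedom at least 21.2). Group totals were 22961887 to 32721605 (wt 2 h), 22556713 to 25366744 (tg 2 h), 22263155 to 30941927 (wt 4 h) and 21474255 to 28419872 (tg 4 h). Each SE of a log2 change was worked back from the test, as the absolute change divided by the square root of its quasi-likelihood F statistic. The intervals were built from these SE with the t distribution and cover 95%.

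Alternatives were DESeq2 size factors and upper-quartile scaling in edgeR, no filter, a replicate block, DESeq2 1.42.0, limma-voom (limma 3.58.1), fits to 2 groups, and libraries left out. The genes, lists and alternatives were chosen with earlier results of these data known. Named genes are the 8, Gys1, Pygb and Gyg, listed genes that passed at 2 h or 4 h, and the 3 genes most like each of the 8 that passed. Ppp1r3a, Ppp1r3d, Ppp1r3e, Ppp1r3f and the 3 catalytic subunits are named in addition, chosen after their values were seen. Some listed genes are not reported here and are left out of the list's counts. A comparison of the subunits' proteins was not made. Plots used matplotlib 3.10.9.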

Additional observations from a re-analysis of the deposited data

Results flagged for a closer look

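In each group of 4 or 5 libraries the highest and the lowest value were compared with the nearest other value by Dixon's ratio, for 14 genes and 56 combinations of gene and group. Chance flags about 1 in 20 groups, and 5 combinations were found, 4 of them in the 8 glycogen genes. Ppp1r3g was far above the rest of its group in tg 4 h replicate 4, at 21.0 CPM against 5.56 CPM in the next mouse. Ppp1r3g was also high in wt 2 h replicate 2, at 3.01 CPM against 1.60 CPM in the next mouse. Ugp2 was high in tg 4 h replicate 2, at 478 CPM against 349 CPM. Phka2 was low in tg 2 h replicate 1, at 15 CPM against 22.5 CPM in the next mouse. Of the other genes, Ppp1r2 was high in tg 2 h replicate 1, at 42.6 CPM against 37.5 CPM. The level of 10.2 CPM of Ppp1r3c in tg 4 h replicate 3 did not meet the criterion, since the other 4 mice of the group ranged widely.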

How the results depend on the processing

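Of the values of the 8 genes over all alternatives, 868 kept direction and side of the threshold, 2 lost a call, 10 gained one, and 96 changed sign, 0 of these called in either fit. At 2 h the number of the 8 genes that passed was 0, and 2 in DESeq2, 2 in the fits to 2 groups, 1 (Ppp1r3c) without the 3 libraries that stood apart, and 0 to 1 when each library was left out. At 4 h it was 2, and 1 in limma-voom, and 3, with Ppp1r3g, in DESeq2, without the 3 libraries and without wt 4 h replicate 1. Over all genes DESeq2 called 421 at 2 h (270 in edgeR), 6 for the difference of effects, 289 between durations in tg (114 in edgeR) and 1 in wt. Leaving out each library gave 151 to 244 genes at 2 h (151 without tg 2 h replicate 5), 895 to 1887 at 4 h (895 without wt 4 h replicate 3), 0 to 3 for the difference, 20 to 134 in tg (20 without tg 2 h replicate 3) and 0 to 1 in wt. The length of the longest transcript, and that of the longest coding transcript, which was added after seeing the data, each moved 4 of the 8 genes in the order of levels. The causes of these shifts were not tested.

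Whether the numbers in the sample names pair the mice was not settled. Over 27 same-numbered pairs r ran from -0.329 to 0.414, 10 of them over 0.1. Their median was -0.0036, against -0.0066 for differently numbered pairs. Of 19 libraries, 8 were most like one with their own number. With a replicate block 1 of the 8 genes passed at 2 h, Ppp1r3b at 1.77 (adjusted p = 0.0368 by edgeR, Benjamini-Hochberg), and 276 genes in all, and it changed no other call of the 8. Sign changes under the block were those of Pygl on average (0.0012), Ppp1r3g between durations in tg (-0.014) and Gbe1 between durations in wt (-0.0051).

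The other sign changes, all of log2 values that did not pass, were as follows. Without the 3 libraries, Ugp2 and Pygl were at 0.13 and 0.12 at 2 h, Gbe1 at 0.27 at 4 h, Pygl and Phka2 at 0.14 and 0.051 on average, Gbe1 and Ppp1r3g at 0.040 and 0.36 for the difference, and Gbe1, Ppp1r3b and Ppp1r3g at -0.17, -0.43 and -0.28 between durations in wt. Pygl was at -0.018 at 4 h with upper-quartile scaling and, on average, at 0.0029 with DESeq2 size factors and 0.0030 in DESeq2. In limma-voom Ppp1r3c and Ppp1r3g were at -0.096 and 0.50 for the difference, Ppp1r3c at -0.16 between durations in tg, and Gbe1, Ppp1r3b and Ppp1r3g at -0.0043, -0.057 and -0.065 in wt. Between durations in wt, Ppp1r3b was at -0.00096, -0.0053 and -0.00028 with DESeq2 size factors, upper-quartile scaling and DESeq2, and Gbe1 and Ppp1r3b at -0.0083 and -0.012 in fits to 2 groups. Leaving out each library gave, at 2 h, ranges of -0.12 to 0.12 for Ugp2, -0.12 to 0.12 for Pygl and -0.033 to 0.16 for Phka2. At 4 h they were -0.21 to 0.15 for Gbe1 and -0.087 to 0.080 for Pygl, and on average -0.032 to 0.15 for Gbe1, -0.053 to 0.066 for Pygl and -0.080 to 0.019 for Phka2. For the difference they were -0.20 to 0.11 for Gys2, -0.36 to 0.0038 for Gbe1, -0.10 to 0.14 for Pygl and -0.79 to 0.83 for Ppp1r3g. Between durations in tg they were -0.28 to 0.035 for Gys2, -0.19 to 0.024 for Pygl and -0.45 to 1.17 for Ppp1r3g. In wt they were -0.035 to 0.14 for Ugp2, -0.16 to 0.14 for Gbe1, -0.43 to 0.25 for Ppp1r3b, -0.19 to 0.0044 for Ppp1r3c and -0.27 to 0.63 for Ppp1r3g. With 4 or 5 mice a group, these data limit small changes of the enzymes to the intervals given with each.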
